A study of Mus musculus with 60 samples.

Results

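Gene expression in the ventral dentate gyrus (DG) was compared between mice raised in an enriched environment (EE) and mice raised in standard housing (SH). The series holds 60 samples, of which 20 are RNA-Seq samples. The 9 compared were ventral EE replicates 1 to 5 and ventral SH replicates 1, 2, 4 and 5, chosen by their labels. The animals were male C57BL6J mice that were weaned on day 22, spent 8 weeks in their housing and were killed on day 80, so age and strain were shared by both groups. A cage held 3 mice in SH and 12 in EE. EE also added space, wheels for exercise and a changing set of items to explore, so company, exercise and novelty cannot be told apart. Tissue was punched from frozen sections with a puncher of 300 µm diameter, and the punches of several mice were pooled into each sample. A replicate is therefore a pool of mice and not 1 animal, and each ventral sample has a dorsal sample from the same mice.

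The DG is the entry station of the hippocampus, where granule cells receive input from the entorhinal cortex and send mossy fibers to CA3. Its ventral pole is connected with brain regions that govern emotion and stress. Granule cells fire sparsely, and firing switches on immediate early genes within minutes, which encode transcription factors that in turn control slower genes for synapses, growth factors and peptides. Running, novelty and social contact are each known to engage this program, and glucocorticoids, glia and vessels respond to the same conditions in this tissue.

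The 9 samples held 22919364 to 28186346 fragments counted on genes. The model was fitted to 18 samples, the dorsal and ventral samples of both housings without SH replicate 3, and the ventral contrast was taken from it. Of 46480 genes, 17040 exceeded 10 counts in 2 or more of these 18 samples and were tested. Expression is given as CPM, the counts of a gene scaled to a common library size with TMM normalization, which is not corrected for gene length. Fold changes are from the quasi-likelihood test of edgeR, with p values adjusted by the method of Benjamini and Hochberg over all 17040 genes, and a gene was called raised or lowered at an adjusted p under 0.05 and a change of at least 20%. SH replicate 3 was left out. The study excluded an SH sample for its Xist expression without giving its number, and replicate 3 was taken to be that sample, since it held 12.1 CPM of Xist against 0 to 0.118 CPM in the other 9 ventral samples. The p values rest on a spread between pools that was estimated over all 4 groups of the 18 samples together. Dorsal and ventral samples of the same mice entered this model as independent. Markers of granule cells were high in the tissue as labelled, with Prox1, their defining transcription factor, at 133 ± 11.0 CPM (SD, n = 4) in SH and the calcium buffer Calb1 at 195 ± 11.1 CPM.

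EE raised 31 genes in ventral DG, 0.182% of those tested, and lowered 10 (0.0587%). The raised genes were led by immediate early transcription factors (Npas4, Fos, Fosb), with the dopamine receptor Drd1, the synaptic protein Nptx2, the opioid precursor Penk and the plasma protein Lrg1 among the others. Changes were small for most genes: 8 raised genes and 1 lowered gene changed more than 2-fold, and log2 fold changes ranged from 0.29 to 2.05 among raised genes and from -1.05 to -0.29 among lowered ones. In each of the 41 genes the 5 EE samples lay on one side of the 4 SH samples without overlap. Among all genes tested, 1.28% had every EE sample above every SH sample and 1.17% had every EE sample below. Deviations from the group means correlated weakly between EE and SH samples of the same replicate number (r = 0.191 to 0.243). Only 3 of 8 samples correlated best with their own number, and the labels do not say what a number shares. With the replicate number as a block in the model (the replicate block) all 41 genes remained called. The counts then rose to 69 raised (0.405%) and 18 lowered (0.106%). The counts fell to 22 raised and 3 lowered in a fit of the ventral samples alone. They fell to 20 and 3 without SH replicate 4, and 3 genes were lowered without EE replicate 1 or SH replicate 2.

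Of all lists of genes examined, immediate early transcription factors had the highest median fold change and the most raised genes. Of 26 genes on this list, all of which were tested, 7 rose (10 with the replicate block), none was lowered, and 25 had a positive fold change. Of all 17040 genes tested, 0.182% rose (0.405% with the block) and 8508 had a positive fold change. The median log2 fold change of the 26 was 0.38, against -0.000183 over all genes tested. At an unadjusted p under 0.05, 17 of the 26 were higher in EE, against 4.27% of all genes, and 1 was lower, against 3.32%. This list and the others were chosen with earlier results of these data known. Their shares therefore describe these data and are no independent support.

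Npas4, a neuron-specific factor induced by calcium entry, had 1.52, 0.939, 0.891 and 0.877 CPM in SH replicates 1, 2, 4 and 5 and 3.53, 3.35, 2.98, 3.82 and 3.04 CPM in EE replicates 1 to 5. SH replicate 1 stood above the other SH samples but below every EE sample. Its log2 fold change was 1.65 ± 0.15 (SE, adjusted p = 3.01e-06), the largest of the 7 factors. Fos, the founding member of the AP-1 family, had 3.60, 3.16, 3.40 and 4.64 CPM in SH and 7.92, 9.51, 9.29, 9.21 and 8.60 CPM in EE. The lowest EE sample thus exceeded the highest SH sample by far, and the log2 fold change was 1.26 ± 0.13 (adjusted p = 2.25e-05). Fosb, whose truncated product is known to accumulate with repeated stimulation, rose from 2.36 ± 0.415 CPM (SD, n = 4) to 4.88 ± 0.380 CPM (n = 5), with a log2 fold change of 1.05 ± 0.13 (adjusted p = 0.000291).

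The other 4 factors rose by smaller amounts. Fosl2, a slower AP-1 member, went from 42.0 ± 2.79 to 56.8 ± 3.97 CPM (log2 fold change 0.43 ± 0.06, adjusted p = 0.000847). The orphan nuclear receptor Nr4a2 had 16.1 to 18.6 CPM in SH and 22.9, 29.2, 27.6, 21.3 and 24.9 CPM in EE (0.57 ± 0.09, adjusted p = 0.00171). Its relative Nr4a1 had 8.83, 9.84, 9.52 and 12.5 CPM in SH and 14.4 to 18.1 CPM in EE (0.61 ± 0.13, adjusted p = 0.0431). Junb, an AP-1 partner of Fos, had 28.0, 26.5, 24.6 and 26.2 CPM in SH against 30.0, 37.6, 31.0, 36.1 and 37.3 CPM in EE (0.38 ± 0.08, adjusted p = 0.0267). Of the 7 factors, the groups came closest in Junb, with EE replicate 1 only slightly above SH replicate 1. Per unit of transcript length the raised factors differed in level, from a mean of 0.440 TPM (a unit that corrects for length and depth) for Npas4 to 8.43 TPM for Junb in EE. Npas4 was thus of low expression, and neither Npas4 nor Fosb passed an alternative filter of TPM over 1 in at least 3 samples.

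A further 3 factors of the list were called only with the replicate block. Egr2, a zinc finger factor of the same early wave, had 0.353, 0.488, 0.567 and 0.913 CPM in SH and 1.02 to 2.04 CPM in EE (log2 fold change 1.35 ± 0.33, adjusted p = 0.107 and 0.0433 with the block). Its family member Egr1 had 8.90 to 11.8 CPM in SH and 12.7 to 14.2 CPM in EE (0.40 ± 0.12, adjusted p = 0.276 and 0.0433 with the block). Klf4, a Krüppel-like factor, had 3.04 to 4.09 CPM in SH and 4.70 to 5.71 CPM in EE (0.47 ± 0.11, adjusted p = 0.0947 and 0.0294 with the block). In all 3 genes every EE sample lay above every SH sample.

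**Figure D1:**
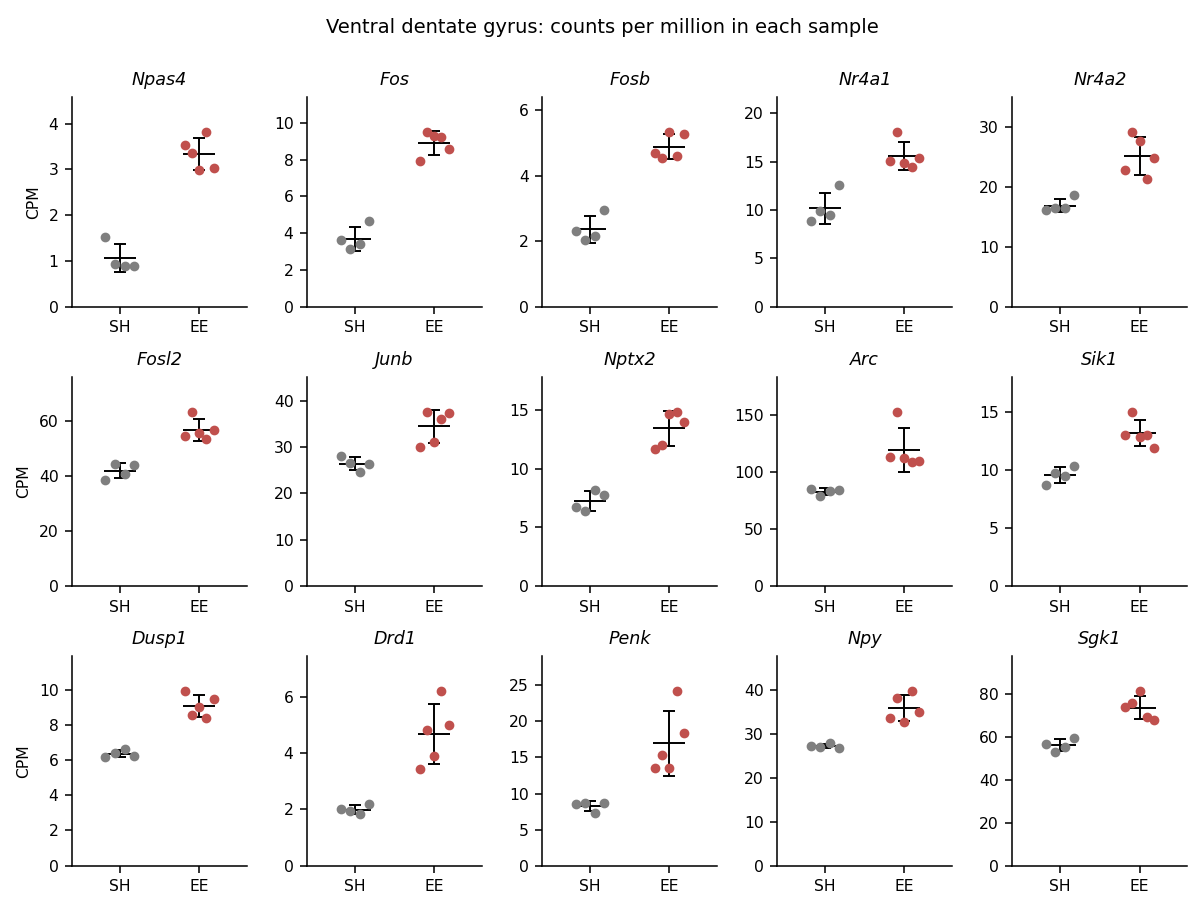
CPM (vertical axes, linear from 0) of 15 raised genes in each ventral sample, with SH in grey (n = 4) and EE in red (n = 5), and with the mean as a line and the SD as a bar. In each panel the EE samples sit above the SH samples without overlap, by the widest margin relative to SH in Npas4 (3.34 against 1.06 CPM on average) and by the narrowest in Junb.

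Many activity-dependent promoters carry the cAMP response element (CRE), the binding site of CREB, whose full palindrome is TGACGTCA and whose half-site is TGACG. RefSeq start sites (GRCm38.p6) were at hand for 22 of the 31 raised genes, and the 250 bases before each start site were searched on both strands. The half-site was in 13 of these 22 genes, counting a gene with several start sites once, or in 44.8% of their 29 windows, against 17.8% of all 32851 windows. The palindrome, which also holds 2 half-sites, was in 2 of the 22 genes (Dusp1 and Ch25h), or in 6.90% of their windows against 1.55% of all. Of the 10 lowered genes, 5 had a window, and 1 of these held the half-site and the palindrome. The AP-1 site TGANTCA was in none of the 22, against 6.75% of all windows. These matches are letters in a window and were not tested for binding, and the base composition of the windows was not matched. To show where these letters lie, some windows are given 5′ to 3′ on the strand of the gene, with half-sites on either strand in capitals. They are those of Dusp1, which holds the palindrome, and of 4 immediate early factors. These 4 had the largest fold changes among the 7 raised factors of that list.
Npas4, chr19:4989972-4990221, minus strand: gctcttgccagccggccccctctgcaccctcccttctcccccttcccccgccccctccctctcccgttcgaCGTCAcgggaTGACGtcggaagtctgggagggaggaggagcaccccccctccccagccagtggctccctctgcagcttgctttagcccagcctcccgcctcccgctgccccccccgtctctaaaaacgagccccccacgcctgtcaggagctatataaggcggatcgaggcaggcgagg
Fos, chr12:85473640-85473889, plus strand: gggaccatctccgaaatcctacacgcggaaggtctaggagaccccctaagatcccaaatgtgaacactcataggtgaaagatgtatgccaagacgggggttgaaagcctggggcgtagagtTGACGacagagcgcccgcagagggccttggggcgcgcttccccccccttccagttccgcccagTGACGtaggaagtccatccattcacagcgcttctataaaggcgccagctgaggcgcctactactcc
Fosb, chr7:19310046-19310295, minus strand: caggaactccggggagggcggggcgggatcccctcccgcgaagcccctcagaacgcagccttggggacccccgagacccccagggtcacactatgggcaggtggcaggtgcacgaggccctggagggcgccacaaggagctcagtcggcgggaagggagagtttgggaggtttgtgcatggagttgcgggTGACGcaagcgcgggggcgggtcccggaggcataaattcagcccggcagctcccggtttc
Nr4a1, chr15:101266596-101266845, plus strand: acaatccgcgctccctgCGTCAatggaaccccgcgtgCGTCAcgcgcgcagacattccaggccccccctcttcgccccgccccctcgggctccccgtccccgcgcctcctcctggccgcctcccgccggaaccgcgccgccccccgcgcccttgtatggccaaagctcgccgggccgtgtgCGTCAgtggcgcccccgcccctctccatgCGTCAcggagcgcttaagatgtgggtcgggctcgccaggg
Dusp1, chr17:26508473-26508722, minus strand: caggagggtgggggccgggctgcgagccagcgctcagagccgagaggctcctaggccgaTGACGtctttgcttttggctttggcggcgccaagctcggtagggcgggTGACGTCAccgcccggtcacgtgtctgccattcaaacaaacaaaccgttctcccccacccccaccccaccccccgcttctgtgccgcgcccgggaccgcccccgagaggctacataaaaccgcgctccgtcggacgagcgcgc
In Fos the half-sites ended 125 and 62 bases before the start site, and in Fosb the single one ended 56 bases before it. Npas4 had 2 half-sites next to each other (175 and 165 bases before the start site), whereas Nr4a1 had 4, spread from 229 to 36 bases before the start site. The palindrome of Dusp1 lies where its 2 nearest half-sites overlap, 139 and 136 bases before the start site. Junb had 1 half-site, Nr4a2 had 4 and Fosl2 had none in this window.

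A second list held genes that neuronal activity is known to induce and that act at synapses, in signaling or in secretion. Of these 29 effectors, 4 rose (9 with the replicate block), against 0.182% of all genes tested (0.405% with the block). A positive fold change was seen in 28 of the 29, with a median log2 fold change of 0.24. Nptx2, a secreted pentraxin that gathers AMPA receptors at excitatory synapses on interneurons, had 6.75, 6.35, 8.14 and 7.71 CPM in SH and 11.7, 12.0, 14.6, 14.8 and 14.0 CPM in EE (log2 fold change 0.90 ± 0.11, adjusted p = 0.000116). Arc, which controls AMPA receptor uptake at synapses, had 85.2, 78.8, 83.8 and 84.2 CPM in SH and 114, 153, 112, 109 and 110 CPM in EE (0.53 ± 0.09, adjusted p = 0.00993). EE replicate 2 stood above the other EE samples for Arc, but these too lay above all SH samples. Sik1, a kinase that restrains CREB coactivators, rose from 9.59 ± 0.676 to 13.2 ± 1.14 CPM (0.46 ± 0.07, adjusted p = 0.00229), and the atypical kinase Mapk4 rose from 43.2 ± 2.08 to 53.9 ± 3.98 CPM (0.32 ± 0.06, adjusted p = 0.0305).

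A further 5 effectors were called only with the replicate block. Vgf, a precursor of secreted peptides, had 67.8, 66.5, 85.9 and 92.1 CPM in SH and 93.5, 85.2, 113, 124 and 115 CPM in EE. Replicates 1 and 2 were low and replicates 4 and 5 high in both groups, so that the groups overlapped, yet within each of these 4 numbers EE was higher (adjusted p = 0.124 and 8.16e-05 with the block). Gadd45b, which takes part in activity-induced DNA demethylation, had 11.1, 10.8, 9.64 and 10.7 CPM in SH and 12.3 to 14.8 CPM in EE. Its log2 fold change of 0.40 ± 0.09 missed the threshold narrowly (adjusted p = 0.0504, and 0.00767 with the block). Its relative Gadd45g (0.30 ± 0.09), the sorting receptor Sorcs3 (0.40 ± 0.09) and the small GTPase Arl4d (0.51 ± 0.12) had adjusted p values of 0.257, 0.0501 and 0.0947 without the block and of 0.0433, 0.00352 and 0.00767 with it. Bdnf, the neurotrophin most often linked to activity, had 43.0 to 45.9 CPM in SH and 45.8, 39.1, 45.8, 58.8 and 52.2 CPM in EE, and the groups overlapped (0.14 ± 0.10, adjusted p = 0.802).

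Among inhibitors that feed back on MAP kinase, 1 of 14 rose, against 0.182% of all genes tested. Dusp1, a phosphatase that switches off p38, JNK and ERK, had 6.18, 6.39, 6.65 and 6.25 CPM in SH and 9.94, 8.56, 9.05, 8.39 and 9.48 CPM in EE (log2 fold change 0.52 ± 0.08, adjusted p = 0.00204). SH samples were tightly grouped and the difference was several times their SD of 0.206 CPM. Dusp5, a nuclear phosphatase specific for ERK, had 6.72 to 8.04 CPM in SH and 9.21 to 13.6 CPM in EE but did not pass (0.61 ± 0.14, adjusted p = 0.0865 and 0.0616 with the block). The median log2 fold change of the 14 was 0.10, and 12 were positive.

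Of 22 neuropeptide genes tested (23 on the list), 2 rose and 4 did so with the replicate block, against 0.182% and 0.405% of all genes tested. Penk, the precursor of the enkephalins, had 8.58, 8.68, 7.25 and 8.70 CPM in SH and 13.5, 15.3, 13.5, 24.2 and 18.4 CPM in EE. EE samples were spread widely, with replicate 4 highest, but all lay above SH, and the fitted log2 fold change was 1.03 ± 0.15 (adjusted p = 0.00142). Npy, the neuropeptide Y of hilar interneurons that dampens excitation, had 26.7 to 27.8 CPM in SH and 33.6, 38.2, 32.8, 39.7 and 35.0 CPM in EE (0.40 ± 0.07, adjusted p = 0.00846). Other interneuron markers were not called, and the summed level of the 17 interneuron markers tested was 1176 to 1395 CPM in SH and 1213 to 1352 CPM in EE. Of these 17, Npy included, 4 were higher in EE at an unadjusted p under 0.05 (23.5%, against 4.27% of all genes). None was lower by that measure, and 7 of the 17 had a positive fold change. Grp, gastrin-releasing peptide, had 11.1 to 14.1 CPM in SH and 13.8 to 18.9 CPM in EE (0.42 ± 0.10, adjusted p = 0.106 and 0.0152 with the block). The median log2 fold change of the list was 0.19 and 18 of 22 were positive.

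Drd1 was the gene raised without the replicate block on the list of monoamine and acetylcholine receptors. This dopamine receptor couples to cAMP and had 2.01, 1.95, 1.82 and 2.19 CPM in SH and 3.46, 4.84, 3.92, 6.22 and 5.00 CPM in EE (log2 fold change 1.23 ± 0.15, adjusted p = 0.000116). Of the 28 monoamine and acetylcholine receptors tested it was the only one raised without the block, and their median log2 fold change was -0.001. The adrenergic receptor Adra2c was raised with the replicate block (23.4 to 26.3 CPM in SH and 27.6 to 34.2 CPM in EE, adjusted p = 0.189 and 0.0462 with the block). None of 10 genes for opioid receptors and peptide processing was called, although Oprd1, a receptor for enkephalins, had 5.67 to 5.93 CPM in SH and 6.38 to 7.68 CPM in EE (0.24 ± 0.09, adjusted p = 0.432). None of 27 glutamate receptor genes, 19 GABA genes or 42 voltage-gated channel genes was called with or without the block, and their median log2 fold changes were -0.03, -0.03 and 0.01. Of the 42 channel genes, 5 were higher (11.9%) and 4 lower (9.52%) in EE at an unadjusted p under 0.05. These shares were 4.27% and 3.32% over all genes.

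The lists of glucocorticoid targets and of clock genes held 1 called gene each. Sgk1, a kinase that is a classical glucocorticoid target, had 56.6, 52.8, 55.0 and 59.5 CPM in SH and 73.9, 75.8, 81.3, 69.1 and 67.7 CPM in EE (log2 fold change 0.39 ± 0.07, adjusted p = 0.00522). It was the 1 raised gene of 16 on the glucocorticoid list, against 0.182% of all genes tested, and 13 of the 16 were positive (median 0.17). Tsc22d3, the glucocorticoid-induced leucine zipper, had 59.5 to 72.1 CPM in SH and 66.3 to 104 CPM in EE, and the lipid droplet protein Plin4 had 0.950 to 1.27 CPM in SH and 1.48 to 2.85 CPM in EE. Both were called only with the replicate block (adjusted p = 0.366 and 0.0226 for Tsc22d3, 0.225 and 0.0433 for Plin4). Of 18 clock genes, Per3, a repressor of the clock, was lowered from 31.5, 33.6, 34.7 and 33.3 CPM in SH to 28.1, 27.2, 24.3, 24.9 and 31.2 CPM in EE (-0.29 ± 0.06, adjusted p = 0.0468). Npas2, a partner of Arntl in the activating limb, had 11.3 to 13.6 CPM in SH and 14.4 to 19.3 CPM in EE and was raised only with the block (0.36 ± 0.09, adjusted p = 0.0996 and 0.0300 with the block). Per1 (0.21 ± 0.05, adjusted p = 0.151) and Nr1d2 (-0.17 ± 0.06, adjusted p = 0.470) did not pass, and the clock list was split, with 8 of 18 positive. At an unadjusted p under 0.05, 5 of the 18 were lower (27.8%) and 3 higher (16.7%) in EE, against 3.32% and 4.27% of all genes.

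Several raised genes belong to none of the lists named so far and are known from vessels, blood or the acute-phase response. They were grouped here after their values were seen. Lrg1, a secreted glycoprotein made by vessels and in acute inflammation, had the largest fold change of all called genes, with 0.353, 0.188, 0.243 and 0.585 CPM in SH and 1.44, 1.90, 1.37, 1.42 and 1.15 CPM in EE (log2 fold change 2.05 ± 0.31, adjusted p = 0.00206). Tmem252 rose from 0.665 ± 0.262 to 2.22 ± 0.845 CPM (1.70 ± 0.31, adjusted p = 0.0131), and Ch25h, which makes 25-hydroxycholesterol, rose from 0.219 ± 0.134 to 0.771 ± 0.289 CPM (1.75 ± 0.37, adjusted p = 0.0408). All 3 were under 1 CPM on average in SH, so their folds rest on few fragments there. Per unit of length they were low as well, at a mean of at most 0.466 TPM in EE. With fragments counted on both strands the log2 fold change of Tmem252 was 0.70 and it was no longer called.

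Genes of higher expression in this set moved less. The shear-responsive factor Klf2 had 4.32 to 5.03 CPM in SH and 6.67 to 8.51 CPM in EE (0.68 ± 0.10, adjusted p = 0.00204), and the endothelial early gene Apold1 had 3.40 to 4.36 CPM in SH and 5.83 to 8.54 CPM in EE (0.75 ± 0.13, adjusted p = 0.00568). Ccn2, a matrix-associated growth regulator, rose from 1.93 ± 0.339 to 3.77 ± 0.620 CPM (0.96 ± 0.17, adjusted p = 0.00763). The amino acid transporter Slc38a5 rose from 3.15 ± 0.176 to 5.33 ± 0.899 CPM (0.76 ± 0.13, adjusted p = 0.00763). Vwf, the clotting factor stored by endothelium, had 15.6, 17.5, 15.8 and 21.9 CPM in SH and 22.9, 26.7, 33.7, 28.9 and 23.2 CPM in EE (0.61 ± 0.12, adjusted p = 0.0317), and the GTPase Gimap6 rose from 3.21 ± 0.391 to 4.71 ± 0.573 CPM (0.54 ± 0.11, adjusted p = 0.0267). The siderophore-binding protein Lcn2 had 0.247 to 0.548 CPM in SH and 1.13 to 3.15 CPM in EE (2.14 ± 0.46), just outside the threshold (adjusted p = 0.0501, and 0.00851 with the block).

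Markers of blood are given beside these genes. Of 8 blood cell markers tested, 7 were higher in EE at an unadjusted p under 0.05, against 4.27% of all genes. None of the 8 was called (1 with the replicate block), and their median log2 fold change was 0.35. Their summed level was 150.0 to 164 CPM in SH and 168 to 235 CPM in EE, without overlap. Examples are the hemoglobin gene Hbb-bs at 94.9 to 109 CPM in SH and 102 to 156 CPM in EE, the heme enzyme of red cells Alas2 at 3.14 to 4.25 and 4.33 to 6.85 CPM, and the neutrophil protein S100a9 at 0.122 to 0.256 and 0.314 to 0.556 CPM. The 16 endothelial markers tested summed to 429 to 512 CPM in SH and 472 to 552 CPM in EE, which overlap, and 2 of them, the glucose transporter Slc2a1 and the surface antigen Ly6a, were raised only with the block (0.33 ± 0.08, adjusted p = 0.0947 and 0.00251 with the block, and 0.39 ± 0.10, adjusted p = 0.135 and 0.0294 with the block). Mural cell markers summed to 285 to 331 CPM in SH and 315 to 361 CPM in EE. At an unadjusted p under 0.05, 5 of the 16 endothelial and 2 of the 12 mural cell markers were higher in EE, and none was lower. The part of blood or vessel content of the punches in the rise of the vessel-related genes was not tested, and in bulk tissue more cells of a type cannot be told apart from more RNA per cell.

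**Figure D2:**
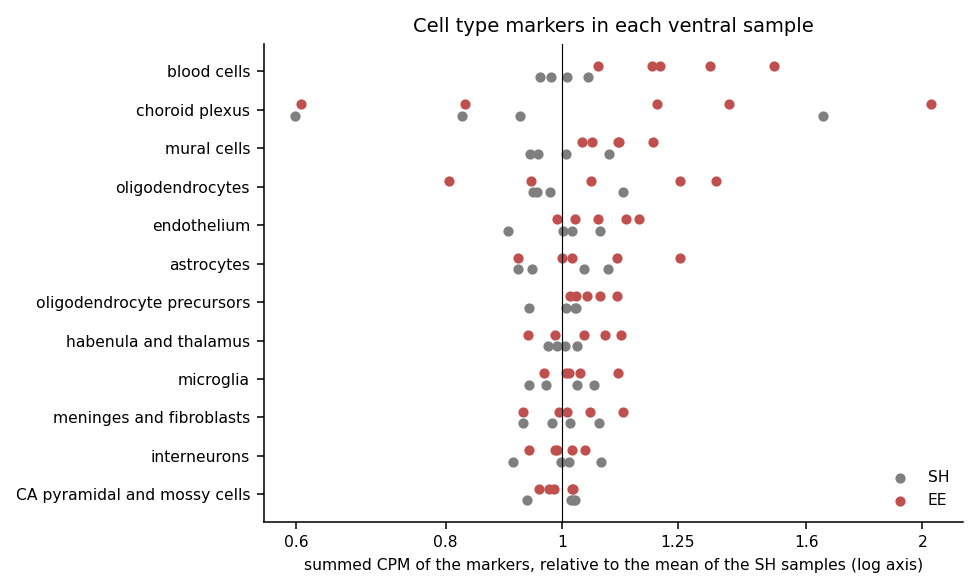
Summed CPM of each list of cell type markers in each ventral sample, divided by the mean of the SH samples (horizontal log axis), with SH in grey (n = 4) and EE in red (n = 5). Blood cell markers were the list whose groups did not overlap (0.959 to 1.05 in SH, 1.07 to 1.50 in EE), and choroid plexus markers varied most within groups, from 0.599 to 2.04.

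Of the other raised genes, Fst, the activin-binding protein follistatin, had 1.84, 1.61, 1.82 and 1.24 CPM in SH and 2.35 to 3.82 CPM in EE (log2 fold change 0.90 ± 0.14, adjusted p = 0.00229). Igfbp6, which binds insulin-like growth factors and prefers IGF2, had 5.40, 6.72, 5.55 and 6.28 CPM in SH and 8.27, 7.29, 9.40, 9.57 and 10.3 CPM in EE (0.59 ± 0.10, adjusted p = 0.00840). It was the 1 raised gene of 13 tested in the IGF system, against 0.182% of all genes tested. Rgs4, a brake on G protein signaling, had 121 to 134 CPM in SH and 144 to 176 CPM in EE (0.29 ± 0.06, adjusted p = 0.0305). The synaptotagmin Syt12 (0.29 ± 0.06, adjusted p = 0.0219), the membrane protein Tmc6 (0.75 ± 0.11, adjusted p = 0.00171) and the Rab5 activator Rin3 (0.79 ± 0.16, adjusted p = 0.0334) completed the 31. The angiogenic factor Vegfa had 29.6 to 33.8 CPM in SH and 31.3 to 38.3 CPM in EE and was not called (0.16 ± 0.07, adjusted p = 0.611).

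Among the 10 lowered genes, 4 encode proteins of the extracellular matrix, a grouping made after their values were seen. Ogn, the small proteoglycan osteoglycin, fell from 19.9, 18.5, 23.8 and 20.4 CPM in SH to between 13.9 and 16.1 CPM in EE (log2 fold change -0.44 ± 0.07, adjusted p = 0.00370). Col12a1, a collagen found on the surface of fibrils, fell from 17.4 ± 2.04 to 13.0 ± 1.19 CPM (-0.41 ± 0.08, adjusted p = 0.0305), and the adaptor protein Matn2 fell from 54.6 ± 3.24 to 44.1 ± 2.68 CPM (-0.31 ± 0.06, adjusted p = 0.0300). Frem3, a matrix protein related to FRAS1, had 2.37, 2.22, 2.84 and 3.43 CPM in SH and 1.79, 1.13, 1.61, 1.18 and 0.815 CPM in EE (-1.05 ± 0.21, adjusted p = 0.0305). Most matrix genes were not called: Ogn and Col12a1 were the 2 lowered of 34 tested on that list, against 0.0587% of all genes. At an unadjusted p under 0.05, 14.7% of the 34 were lower and 8.82% higher in EE, against 3.32% and 4.27% of all genes. Of the 34, 21 were positive, and fibronectin (Fn1) was raised with the replicate block (0.34 ± 0.08, adjusted p = 0.106 and 0.0294 with the block). Markers of meninges and fibroblasts summed to 221 to 256 CPM in SH and 221 to 268 CPM in EE, and this list held Ogn as well as the raised Igfbp6.

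The other lowered genes besides Per3 have diverse functions. Trpa1, an irritant-gated cation channel, had 4.06, 5.26, 5.15 and 5.52 CPM in SH and 2.72, 2.72, 1.80, 2.88 and 3.52 CPM in EE (-0.87 ± 0.17, adjusted p = 0.0219). Atp6v1c2, a subunit of the vacuolar proton pump, fell from 2.26 ± 0.415 to 1.15 ± 0.405 CPM (-0.97 ± 0.19, adjusted p = 0.0303). Otof, a calcium sensor of exocytosis known from inner hair cells, fell from 5.00 ± 0.728 to 3.39 ± 0.467 CPM (-0.56 ± 0.12, adjusted p = 0.0468), and the membrane glycoprotein Gypc fell from 3.51 ± 0.494 to 2.38 ± 0.310 CPM (-0.56 ± 0.12, adjusted p = 0.0468). Gm3764, the 1 noncoding RNA among the 41 (a lincRNA), had 25.2 to 26.5 CPM in SH and 20.5 to 22.0 CPM in EE (-0.30 ± 0.05, adjusted p = 0.00993), so its groups were narrow and apart. Rbm3, an RNA-binding protein induced by cold, had 80.8, 64.6, 55.1 and 54.7 CPM in SH and 52.7, 54.2, 39.1, 40.8 and 46.0 CPM in EE and was lowered only with the block (-0.46 ± 0.13, adjusted p = 0.229 and 0.00209 with the block).

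**Figure D3:**
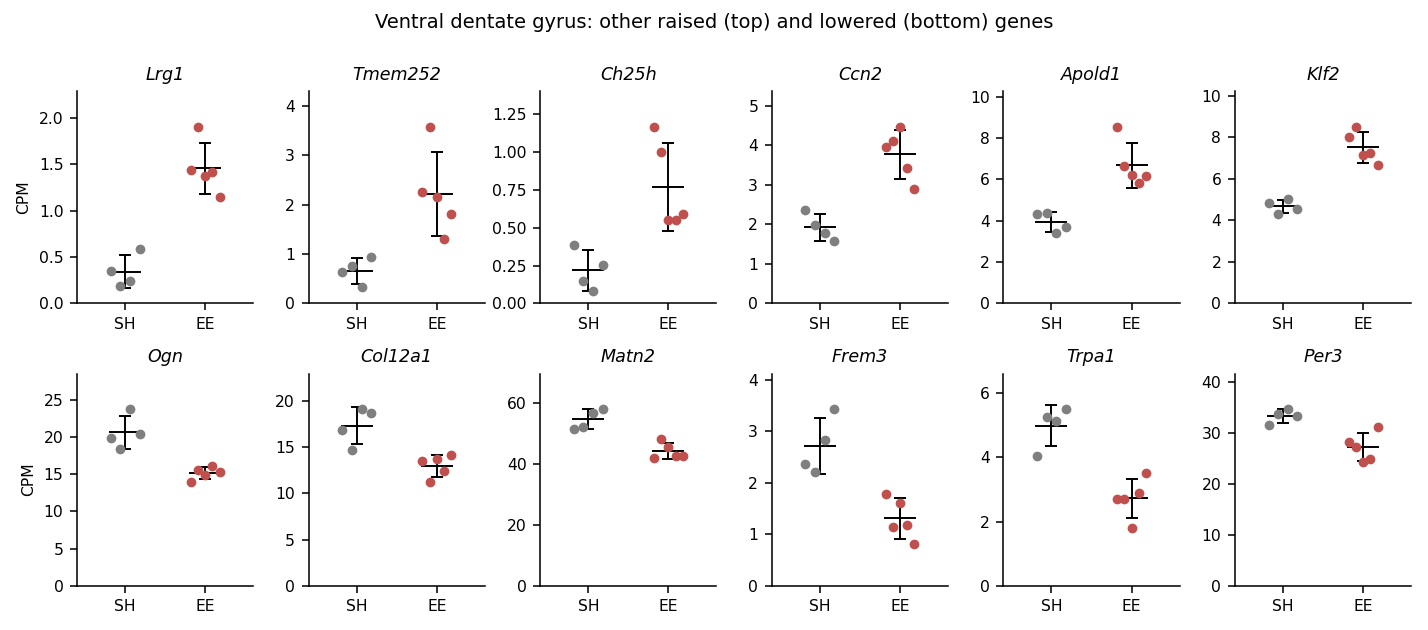
CPM (vertical axes, linear from 0) of 6 raised genes (top) and 6 lowered genes (bottom) in each ventral sample, with SH in grey (n = 4) and EE in red (n = 5), and with the mean as a line and the SD as a bar. The groups do not overlap in any panel, and EE replicate 5 comes close to the SH samples for Per3 (31.2 CPM against 31.5 in SH replicate 1).

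Lists for neurogenesis and housekeeping gave no called gene without the block. None of 18 markers of radial glia-like stem cells, 20 of neuroblasts and immature neurons or 31 cell cycle genes was called with or without the block, and their median log2 fold changes were 0.05, 0.02 and 0.05. At an unadjusted p under 0.05, 4 of the 31 cell cycle genes were higher in EE (12.9%, against 4.27% of all genes) and none was lower. By the same measure 2 of the 20 neuroblast and immature neuron markers were higher and 1 of the 18 radial glia-like markers was lower. Dcx, which marks immature neurons, was at 11.0 ± 1.59 CPM in SH and 11.4 ± 1.89 CPM in EE (0.07 ± 0.11, adjusted p = 0.918). The mitotic kinase Aurkb was at 0.119 ± 0.0855 and 0.448 ± 0.120 CPM, a log2 fold change of 1.84 ± 0.43 at a very low level that did not pass (adjusted p = 0.0897 and 0.0505 with the block). Of 23 granule cell identity genes, 8 were positive (median -0.09), and 1 of the 23, the tryptophan enzyme Tdo2, was lowered with the replicate block (20.8 to 26.1 CPM in SH and 13.6 to 21.7 CPM in EE, adjusted p = 0.0774 and 0.0199 with the block). Of these 23, 4 were lower (17.4%, against 3.32% of all genes) and 2 higher in EE (8.70%) at an unadjusted p under 0.05. None of 76 ribosomal protein genes, 70 genes of oxidative phosphorylation, 32 genes of synaptic vesicle release or 35 of postsynaptic scaffolds was called, although Shank1, a scaffold of excitatory synapses, had 217 to 264 CPM in SH against 320, 350, 326, 228 and 381 CPM in EE (0.43 ± 0.11, adjusted p = 0.157). Of the 35 scaffold genes, 5 were higher (14.3%) and 2 lower (5.71%) in EE at an unadjusted p under 0.05. None of 30 Wnt, 18 Notch, 22 cholesterol synthesis, 30 chaperone or 23 interferon and MHC class I genes was called either, and their medians lay between -0.002 and 0.09. Of 18 genes for DNA methylation and demethylation, Gadd45b and Gadd45g were raised with the block and the others were not. At an unadjusted p under 0.05, 3 of these 18 and 3 of the 22 cholesterol synthesis genes were higher in EE and none was lower.

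Choroid plexus markers differed between samples more than between groups. Their sum was 655, 903, 1008 and 1807 CPM in SH and 908, 662, 2225, 1507 and 1313 CPM in EE, and all 15 had positive fold changes, with none at an unadjusted p under 0.05. The transthyretin gene Ttr had 347 to 994 CPM in SH against 381 to 1304 CPM in EE (0.32 ± 0.58, adjusted p = 0.930). Of 20 genes of retinoic acid and thyroid hormone transport, 1 was raised with the replicate block and none without it (median 0.14). This was Aldh1a1, which makes retinoic acid (0.29, adjusted p = 0.384 and 0.0294 with the block).

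**Figure D4:**
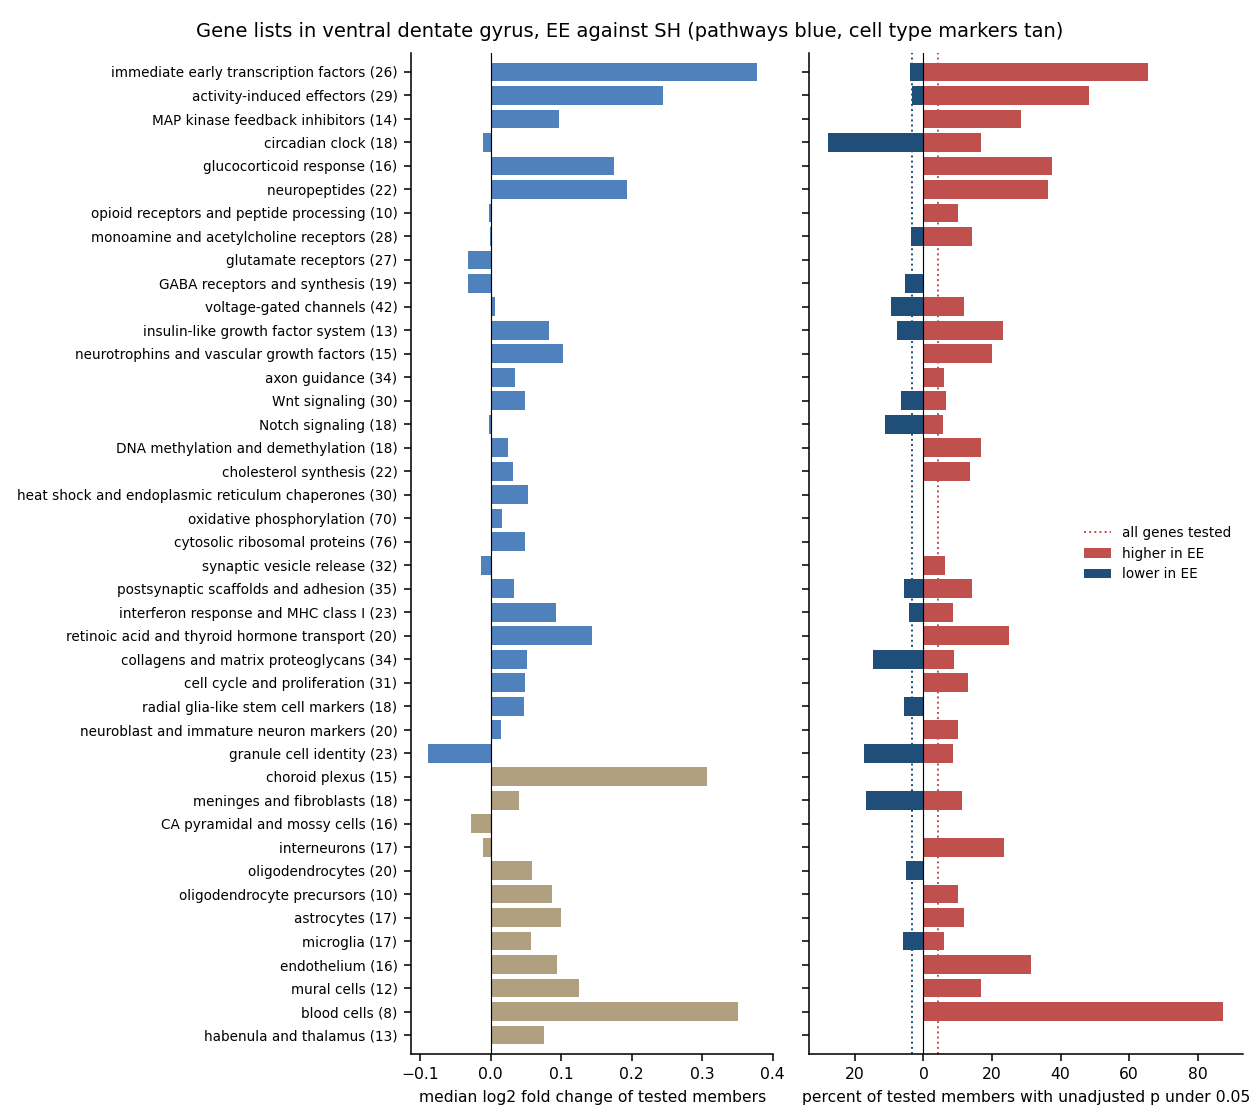
Left, median log2 fold change (EE over SH) of the tested members of each list, with their number in parentheses. Right, percent of these members with an unadjusted p under 0.05, higher in EE to the right and lower to the left, with dotted lines at the percent of all genes tested (4.27% and 3.32%). The 2 activity lists and the blood cell markers reach farthest to the right, and those for glutamate receptors, oxidative phosphorylation and ribosomal proteins have no bar on that side.

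In dorsal DG of the same mice the 41 genes moved in the same direction as in ventral DG, 22 of the 31 raised genes and 3 of the 10 lowered genes with a dorsal adjusted p under 0.05. Of all genes tested, 61.2% had the same sign in both regions, and 0.411% were higher and 0.305% lower in dorsal EE at that threshold. The samples of both regions came from the same mice. The size of the EE effect differed between the regions for 1 gene in the test of the difference itself (0.00587% of those tested), and 3.25% had an unadjusted p under 0.05 in that test. This gene was Igfbp6, which rose from 4.53 ± 0.418 to 12.8 ± 1.31 CPM in dorsal DG (log2 fold change 1.51 ± 0.10), so the ventral minus dorsal effect was -0.92 ± 0.15 (adjusted p of the difference 0.0462). Igfbp6 lost this call with a filter on TPM (over 1 in at least 3 samples) and without EE replicate 1, 3 or 4 or SH replicate 2, 4 or 5. With the replicate block, and with the pool of mice as a block (an alternative chosen after seeing the data), the activin receptor Acvr1c differed as well (0.13 ± 0.08 in ventral and 0.58 ± 0.08 in dorsal DG, adjusted p of the difference 0.0182 with the replicate block). Gpc3 and A930029G22Rik had the next smallest p values for the difference but did not pass (0.57 ± 0.14 and -0.92 ± 0.23).

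Among the 41 genes, 9 had an unadjusted p under 0.05 for the difference. The 41 were chosen for their ventral effect, which by itself favours a larger ventral than dorsal effect, so the direction of these differences supports nothing. Nr4a2 was at 17.9 ± 1.67 CPM in SH and 19.9 ± 1.56 CPM in EE in dorsal DG, a log2 fold change of 0.15 ± 0.09 against 0.57 ± 0.09 in ventral DG (unadjusted p = 0.00206). Dusp1 was at 6.33 ± 0.549 and 6.92 ± 0.578 CPM in dorsal DG, a change of 0.13 ± 0.08 against 0.52 ± 0.08 in ventral DG (unadjusted p = 0.00249). Fos and Drd1 started from higher levels in dorsal SH (6.92 ± 1.46 and 10.7 ± 0.770 CPM) and rose by 0.76 ± 0.12 and 0.72 ± 0.10 there (unadjusted p = 0.00984 and 0.00970). Ogn fell further in dorsal DG (-0.83 ± 0.08, unadjusted p = 0.00147). None of these 5 differences passed after adjustment over all genes.

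**Figure D5:**
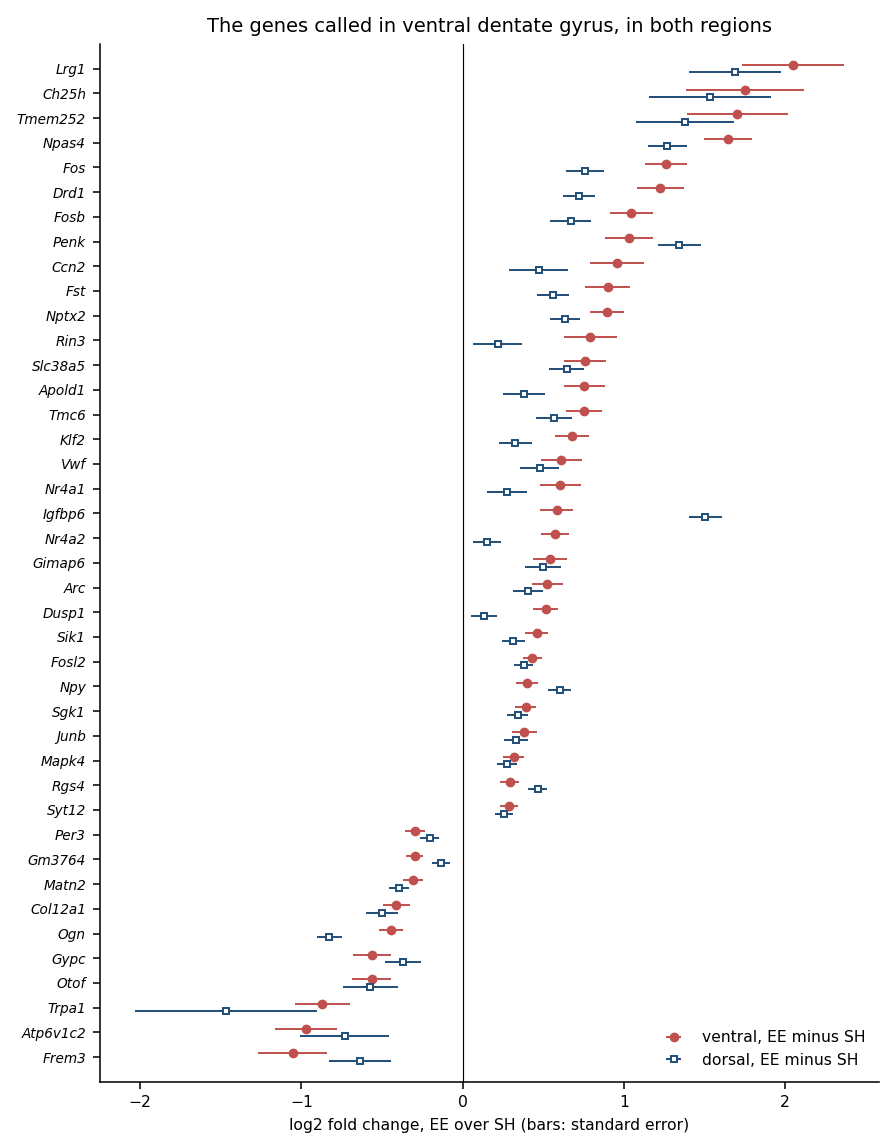
Log2 fold change of EE over SH (horizontal axis) of the 41 genes called in ventral DG, in ventral DG (filled circles) and in dorsal DG (open squares), with the standard error as bars. All dorsal values lie on the same side of 0 as the ventral ones, and Igfbp6 is the gene with the dorsal value far beyond the ventral one (1.51 against 0.59).

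How firmly a call stood differed between genes. Leaving out each of the 9 ventral samples in turn, 19 raised genes and 1 lowered gene (Ogn) stayed called each time, among them Npas4, Fos, Fosb, Fosl2, Nr4a2, Nptx2, Sik1, Dusp1, Drd1, Penk, Npy, Sgk1, Lrg1, Klf2 and Fst. Arc was lost only without SH replicate 2 (adjusted p = 0.0620), as was Gm3764 (0.0519), and Igfbp6 and Tmem252 only without SH replicate 4 (0.0570 and 0.0855). Junb was lost without EE replicate 2 or 5 or SH replicate 2, 4 or 5 (adjusted p up to 0.155). Nr4a1, Rgs4, Rin3, Otof, Gypc and Per3 were each lost without any of 7 samples, with adjusted p values up to 0.198, 0.138, 0.155, 0.204, 0.203 and 0.215. The remaining 10 were lost without 3 to 6 of the samples (Atp6v1c2, Ch25h, Col12a1, Frem3, Gimap6, Mapk4, Matn2, Syt12, Trpa1 and Vwf), at adjusted p values of at most 0.198.

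SH replicate 3, which the fit did not use, was set beside the calls. Of the 31 raised genes, 30 had a lower CPM in this sample than in any EE sample, Vwf being the exception at 23.1 CPM. Of the 10 lowered genes, 9 had a higher CPM in it than in any EE sample, the exception being Gm3764 at 21.2 CPM. It lay above all 4 fitted SH samples for 14 of the raised genes, however, and below all of them for 4 of the lowered genes. The same counts were not taken over all genes tested, so these have no share to be set against.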

How the data were processed

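RNA was extracted from DG punches, and libraries were made with a stranded total RNA kit and sequenced as paired ends. Per the submitters' processing notes, reads were trimmed with Trim Galore 0.4.0, aligned to mm10 with STAR 2.5.1b and quantified with RSEM 1.2.30. The authors deposited fragment counts per gene from STAR for either strand, and the counts of the strand that matches the kit were used. The authors also deposited RSEM estimated counts (expected counts), used rounded in an alternative, and TPM values, used for levels per length and a filter. Multimapping fragments were 11.57 to 14.09% in SH and 13.14 to 17.42% in EE. Names were those of 45968 of 46480 genes.

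All 18 samples of 4 groups (dorsal and ventral, SH and EE, without SH replicate 3) were fitted in 1 model with edgeR 4.0.16 (quasi-likelihood test, TMM) in R 4.3.3 with limma 3.58.1. Alternatives used DESeq2 1.42.0 and the settings in the closing section. Python 3.11.15, numpy 2.4.6, pandas 2.3.3 and matplotlib 3.10.9 were used for tables and plots, and the fit was tested on simulated data. Named genes are all called genes, up to 6 members of each list with the smallest p, genes the study discusses, the 3 with the smallest p for the difference, and others chosen after their values were seen. The comparison and the lists were chosen with earlier results of these data known. Replicates of a group differed by more than sampling noise (chi-square per degree of freedom 4.68 to 39.3).

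Deviations of EE and SH samples of the same replicate number from their group means correlated across genes (r = 0.243, 0.225, 0.214 and 0.191 for replicates 1, 2, 4 and 5). The replicate block rests on these correlations and not on a batch named in the labels. EE replicate 3 has no SH partner. Of 8 samples, 3 correlated best with their own number. Promoter windows are from RefSeq (GRCm38.p6), and genes without one were not searched.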

Additional observations from a re-analysis of the deposited data

Results flagged for a closer look

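The EE effect on Igfbp6 differed between the regions in the test of the difference itself, by -0.92 on the log2 scale (ventral minus dorsal).

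Of 162 groups of 4 or 5 samples examined for a sample far from the others, 7 held one, and chance gives about 1 in 20. Arc had 153 CPM in ventral EE replicate 2, with the next sample at 114 CPM. Nr4a1 had 18.1 CPM in the same sample, with the next at 15.3 CPM. In ventral SH replicate 1, Npas4 was highest at 1.52 CPM (next 0.939 CPM), Aurkb was highest at 0.247 CPM (next 0.0810 CPM) and Rgs4 was lowest at 121 CPM (next 134 CPM). Nr4a2 was highest in ventral SH replicate 5 at 18.6 CPM (next 16.4 CPM), and Penk was lowest in ventral SH replicate 4 at 7.25 CPM (next 8.58 CPM).

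Xist was at 12.1 CPM in ventral SH replicate 3, a sample outside the fit.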

How the results depend on the processing

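No fold change reversed in 927 values recomputed for named genes, and 18 raised genes and 1 lowered gene (Ogn) kept their call in every alternative that tested them. Of these, Npas4, Fosb, Lrg1, Apold1 and Ccn2 did not pass the filter on TPM and were not tested there. Against 31 raised and 10 lowered genes, the replicate block gave 69 and 18, the likelihood ratio test 67 and 20, no filter on low counts 60 and 18, and DESeq2 59 and 16. A filter on TPM left 5 lowered genes and the ventral samples alone 3. Leaving out 1 replicate gave 20 to 43 raised genes and 3 to 11 lowered genes, with the fewest raised without SH replicate 4 (20), and with 3 lowered without EE replicate 1, SH replicate 2 or SH replicate 4, 6 without EE replicate 3 and 4 without SH replicate 5. The 1 gene that differed between regions (Igfbp6) became 0 with the TPM filter and 0 to 1 with 1 replicate left out, lost without EE replicate 1, 3 or 4 or SH replicate 2, 4 or 5. It became 2 genes with the replicate block and with the pool of mice as a block, an alternative chosen after seeing the data. The cause of these changes was not tested. Low counts limit the genes under 1 CPM.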
